A study of Mus musculus with 71 samples.

Results

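The HoxC cluster is a row of 9 Hox genes on mouse chromosome 15, and the microRNA gene Mir196a-2 lies among them. These 10 genes were taken by name, in a genome annotation of 55450 genes. A chromatin loop was counted for a gene when one of its anchors came within 2 kb of a transcription start site (TSS) of that gene. Of the 24244 loops of the merged list, 121 were at a TSS of 1 or more of the 10 genes. Together with loops that had an anchor anywhere in the cluster, chr15:102921103-103036852 in mm10, 135 loops were described. They carried 849 of the 41574 paired-end tags in the list (2.04%, Wilson 95% interval 1.91 to 2.18%).

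The loops came from H3K27ac HiChIP of 2 mouse synovial sarcoma (SyS) tumors, out of 71 samples in the series. HiChIP ligates DNA ends that lie close together in the nucleus and then enriches the joined fragments with an antibody, here against H3K27ac, a histone mark of active promoters and enhancers. Both tumors were of the hSS2 model, in which a human SS18::SSX2 fusion complementary DNA in the Rosa26 locus is silent until Cre removes a floxed stop. Cre was given as TATCre protein into the hindlimb on day 8 of life, so any cell type reached by the protein could start to express the fusion, and the whole tumors were digested to single cells with their stroma. No untreated tissue or other tumor model was assayed by HiChIP in the files used here.

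The list was found to be 2 blocks, each sorted by position. They are called the first part (13683 loops, 28657 tags) and the second part (10561 loops, 12917 tags) below, and neither could be assigned to a tumor. The list gives no value per tumor, so no difference was tested. Intervals are 95% intervals that cover counting error only. A tag is a ligated read pair, and the median loop held 1 tag. Fewer cells that use a contact and fewer contacts per cell cannot be told apart in whole tumors. Since the antibody selects the fragments, a tag count also depends on the H3K27ac at the anchors. More of the mark and more contact cannot be told apart in these counts, between genes or between clusters. Of the synovial sarcoma markers 6 of 9 were reached by a loop, with Pdgfra (41 tags) and Sox2 (39 tags) highest, while Bcl2, Krt8 and Krt19 were at 0. None of 5 macrophage and none of 5 fibroblast markers was reached, and the endothelial and skeletal muscle lists summed to 4 and 2 tags. Of all annotated genes 23.9% were reached, so lists this short do not show which cell types the loops came from. A count of 0 allows up to 3 tags.

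Hox genes encode homeodomain transcription factors that give cells their position along the body axis and the limb. They lie in 4 clusters, named HoxA to HoxD, which arose by duplication, and genes with the same number in different clusters are paralogues. Genes at the 3′ end of a cluster, with low numbers, act towards the head and those at the 5′ end, with high numbers, act towards the tail and the far end of the limb. Polycomb complexes hold silent Hox clusters in a compact repressed domain. Hoxc10 and Hoxc11 are genes of the developing hindlimb. In HoxC all coding genes are on the forward strand, in the order Hoxc13, Hoxc12, Hoxc11, Hoxc10, Hoxc9, Hoxc8, Hoxc6, Hoxc5 and Hoxc4. Hotair, a long non-coding RNA, runs on the reverse strand between Hoxc12 and Hoxc11.

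Mir196a-2 lies between Hoxc10 and Hoxc9, at chr15:102973350-102973434 on the forward strand. MicroRNAs of this family pair with messenger RNAs of several Hox genes. The hairpin of 85 bases is shown because its gene had one of the largest loop scores of the series, with the mature miR-196a-5p in capitals (positions 16 to 37). All miRNA sequences are those of RefSeq on GRCm38.p6.
Mir196a-2 hairpin: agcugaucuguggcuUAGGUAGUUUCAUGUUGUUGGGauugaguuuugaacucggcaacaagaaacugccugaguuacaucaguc

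The same mature sequence is made by Mir196a-1 in the HoxB cluster, and Mir196b in the HoxA cluster gives a relative. The 5p strands are shown to set them side by side, with the seed, bases 2 to 8, in capitals.
miR-196a-5p of Mir196a-2, chromosome 15: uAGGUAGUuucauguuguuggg
miR-196a-5p of Mir196a-1, chromosome 11: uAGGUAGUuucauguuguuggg
miR-196b-5p of Mir196b, chromosome 6: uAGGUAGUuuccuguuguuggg
The seed AGGUAGU was shared by miR-196a-5p and miR-196b-5p and by no other name among the 1738 mature sequences of the table. Counting from the 5′ end, miR-196b-5p differed from miR-196a-5p by A12C, outside the seed. Although the mature sequence is the same, the genes differed in their loops. Mir196a-2 was reached by 34 loops with 381 tags (exact Poisson interval 343.7 to 421.2). Of these, 137 tags lay on anchors that hold its start, and the others came from an anchor of Hoxc9, as described below. The start used for Mir196a-2 was the first base of its hairpin, and the start of a longer primary transcript was not looked for. Mir196a-1 and Mir196b had no loop, which allows up to 3 tags each.

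A pair of further Hox cluster miRNA families was read beside them. Mir10a in HoxB and Mir10b in HoxD share the seed ACCCUGU, and Mir615 lies in HoxC itself, within Hoxc5.
miR-10a-5p: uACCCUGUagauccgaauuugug
miR-10b-5p: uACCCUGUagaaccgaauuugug
miR-615-3p: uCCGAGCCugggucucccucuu
Mir10a had 63 tags on 14 loops, Mir10b had 2 tags on 2 loops and Mir615 had 6 tags on 3 loops, the latter all in the second part. Mir196a-2 therefore had the most tags of these 6 miRNA genes.

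All 10 genes of HoxC were reached by a loop, while 23.9% of all annotated genes were. A loop score, the sum of the tags on the loops of a gene, of at least 50 was found for 9 of the 10, against 0.546% of all genes. Both shares are descriptions, since the cluster was taken up with its scores known. The genes were not independent either, because neighbours share anchors: the scores sum to 2075 tags, but the 121 loops behind them carried 829.

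With the RefSeq TSSs for Hoxc5, the highest scores were at Mir196a-2 and the genes around it, Hoxc11, Hoxc10 and Hoxc9. Hoxc10 stood at 312 tags in the first part and 20 in the second, on 22 loops (exact Poisson interval of the sum 297.2 to 369.7). Hoxc9 stood at 321 tags on 25 loops, with 288 and 33. Hoxc11 stood at 264 tags on 31 loops, with 217 and 47. The first part gave most tags of each of these genes, also in view of its depth. Of the whole list, 31.1% of the tags lay in the second part, and of Hoxc10, 6.02% (3.93 to 9.12%).

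Hoxc12, the next gene towards the 5′ end, had 164 tags on 22 loops, 131 in the first part and 33 in the second (20.1%, 14.7 to 26.9%). Hoxc13, the last gene of the cluster, had 2 tags on 2 loops, both in the second part and both leaving the cluster. One led to Calcoco1 and the other to Pcbp2, which encodes an RNA-binding protein. The largest drop between neighbouring genes at this end thus lay between Hoxc12 and Hoxc13.

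Towards the 3′ end, Hoxc8 had 100 tags on 8 loops, 99 of them in the first part and 1 in the second. Hoxc6 had 54 tags on 13 loops, with 42 and 12. Hoxc4 had 72 tags on 14 loops, with 63 and 9. Both Hoxc6 and Hoxc4 have more than 1 TSS, and the tags were unevenly spread over them. When only the start of the gene record was used, Hoxc6 kept 3 tags and Hoxc4 kept 6. With a window of 5 kb Hoxc6 rose to 141 tags. Among loops with an FDR under 0.01 and under 0.001, Hoxc4 kept 32 and 22 tags. Most tags of Hoxc6 came from an anchor near a downstream TSS of Hoxc6 (51 tags, shared with Hoxc5), and most of Hoxc4 from the anchors at its downstream TSS (66 tags).

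Hoxc5 was first in the order with 385 tags on 34 loops, but this rests on the annotation. In GENCODE a non-coding transcript of Hoxc5 starts beside the TSS of Hoxc10, so that all tags of Hoxc10 were counted for Hoxc5 too. With the TSSs of RefSeq, Hoxc5 had 57 tags, and no other score of the 10 genes changed. No tag of Hoxc5 lay on a loop free of the other genes, and the same was true of Hoxc10, which shares its anchors with Hoxc5, and of Hoxc9, which shares its anchors with Mir196a-2.

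The score of Mir196a-2 also depended on its neighbour. The anchors that hold its start carried 137 tags, 104 on the narrow anchor of the first part and 33 on the anchor of the second part, which also holds a TSS of Hoxc9. The other 244 tags came from the broad Hoxc9 anchor of the first part, which begins less than 2 kb from the miRNA. With a window of 1 kb the score was 137, and with a window of 5 kb, which takes in the Hoxc10 anchors, it was 598. Only 11 of the 381 tags lay on loops that touched none of the other 9 genes.

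**Figure D1:**
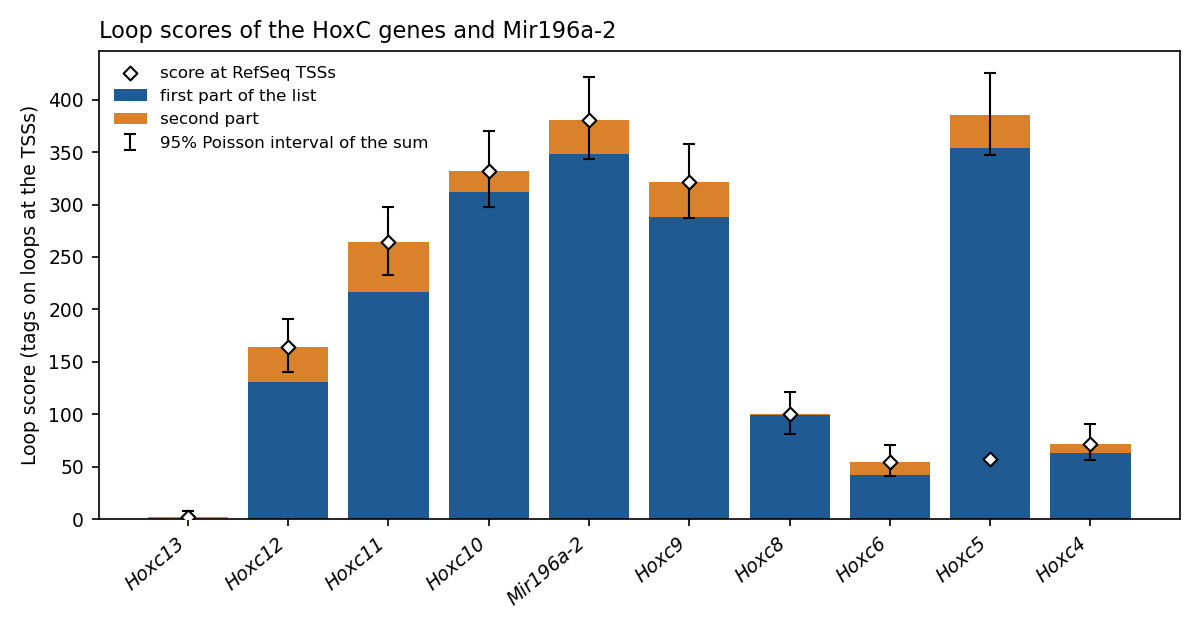
Loop score of each gene (tags, y axis) in the gene order from 5′ to 3′, split by the parts of the list, with the exact Poisson 95% interval of the sum as error bars and the score at RefSeq TSSs as diamonds. The highest bars are those of Hoxc5 (385) and Mir196a-2 (381), the diamond of Hoxc5 lies at 57, and Hoxc13 has 2 tags.

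In the order of the scores, neighbours were set against each other by the tags they did not share. Hoxc5 (256 unshared tags) and Mir196a-2 (252) did not differ beyond counting error, with 50.4% (exact binomial interval 45.96 to 54.8%) on the side of Hoxc5. Nor did Hoxc10 (254) and Hoxc9 (243), at 51.1% (46.6 to 55.6%), or Hoxc4 (72) and Hoxc6 (54), at 57.1% (48.02 to 65.9%). For the other 6 pairs of neighbours the interval lay above 50%, with the lower bound closest to it between Mir196a-2 and Hoxc10, at 50.5%. The order also moved with the window. At 1 kb, or with the TSS inside the anchor, Mir196a-2 (137 tags) fell below Hoxc10, Hoxc9, Hoxc11 and Hoxc12, and at 5 kb Hoxc6 (141 tags) passed Hoxc8 (100 tags) and Hoxc4 (76 tags). Counting error is the smallest error that these values can have, and the spread between tumors could not be measured.

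With both parts summed, most tags of the cluster stayed inside it, and so did those of the first part (75.9%, 72.6 to 78.9%). In the second part 46.7% (38.5 to 55.1%) did, so a majority was not set there. Nor was it among loops of both parts with spans of at least 20 kb, at 49.4% (44.9 to 53.8%). Loops with both anchors in the cluster numbered 30 and carried 605 tags (557.7 to 655.2), and loops with 1 anchor in it numbered 105 and carried 244 tags (214.3 to 276.6). Loops within the cluster thus held 71.3% (68.1 to 74.2%) of the tags while they were 22.2% (16.03 to 29.95%) of the loops. All 30 had at least 4 tags, which 6.74% of all loops in the list had. An FDR under 0.01 was listed for 20 of these 30 loops and for 34 of the 105 that left the cluster, against 15.2% of all loops. The 30 loops spanned at most 95.6 kb, while the median span of the list was 500.3 kb. These shares over all loops are thus not matched for span, and medians by span are given below.

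The strongest loops joined Hoxc10 to its neighbours on either side. In the first part, 74 tags joined the Hoxc11 anchor to the Hoxc10 anchor, over 11.2 kb, and 74 tags joined the Hoxc10 anchor to the Hoxc9 anchor, over 12.7 kb. No loop of the list had more tags, and 7 of its 20 loops with the most tags lay in HoxC. Hoxc12 and Hoxc10 were joined by 46 tags, Mir196a-2 and Hoxc9 by 44, Hoxc11 and Hoxc9 by 39 and Hoxc10 and Mir196a-2 by 37. Beyond Hoxc9, tags became fewer: 31 joined Hoxc9 to Hoxc8, 18 joined Hoxc9 to Hoxc4, and the longest loop of the cluster, from Hoxc12 to Hoxc4 over 95.6 kb, had 7.

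**Figure D2:**
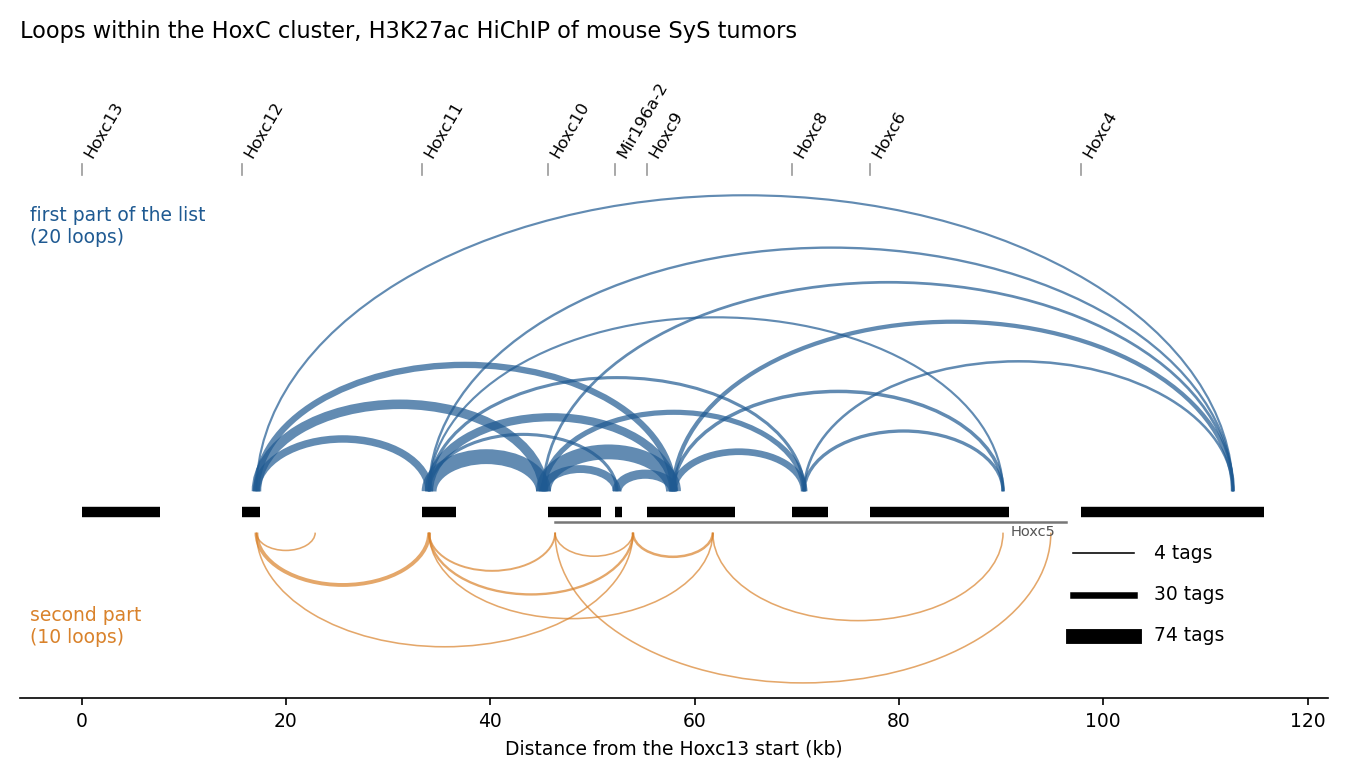
Loops with both anchors in the HoxC cluster, drawn as arcs over the distance from the Hoxc13 start (x axis, kb), with lines wider for more tags, the 20 loops of the first part above and the 10 of the second part below the genes (black bars, the gene record of Hoxc5 in grey). The widest arcs, 74 tags each, run from Hoxc11 to Hoxc10 and from Hoxc10 to Hoxc9, and no arc starts at Hoxc13.

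The anchors of both parts differ in their edges, so anchors that overlap were merged to compare them, which gave 12 regions. Loops joined 20 combinations of these regions, one of them inside the Mir196a-2 and Hoxc9 region, with 18 in the first part and 9 in the second. The 7 found in both were 77.8% of those of the second part and 38.9% of those of the first. The shared ones joined Hoxc12, Hoxc11, Hoxc10 and the Mir196a-2 and Hoxc9 region to each other, except for Hoxc12 with Hoxc10, which had 46 tags in the first part and none in the second. They also held the loops inside the Mir196a-2 and Hoxc9 region and those from it to the downstream Hoxc6 anchor (14 and 4 tags). No loop within the cluster reached Hoxc8 or the end of Hoxc4 in the second part.

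The order of the pairs differed between the parts. In the second part the pair with the most tags was Hoxc12 with Hoxc11 (16 tags), then Hoxc11 with the Mir196a-2 and Hoxc9 region (12 tags). In the first part these pairs had 35 and 51 tags, below the 111 tags between the Hoxc10 region and that of Mir196a-2 and Hoxc9, which had 4 in the second part. At sums this low in the second part, an order among its pairs is weakly set.

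**Figure D3:**
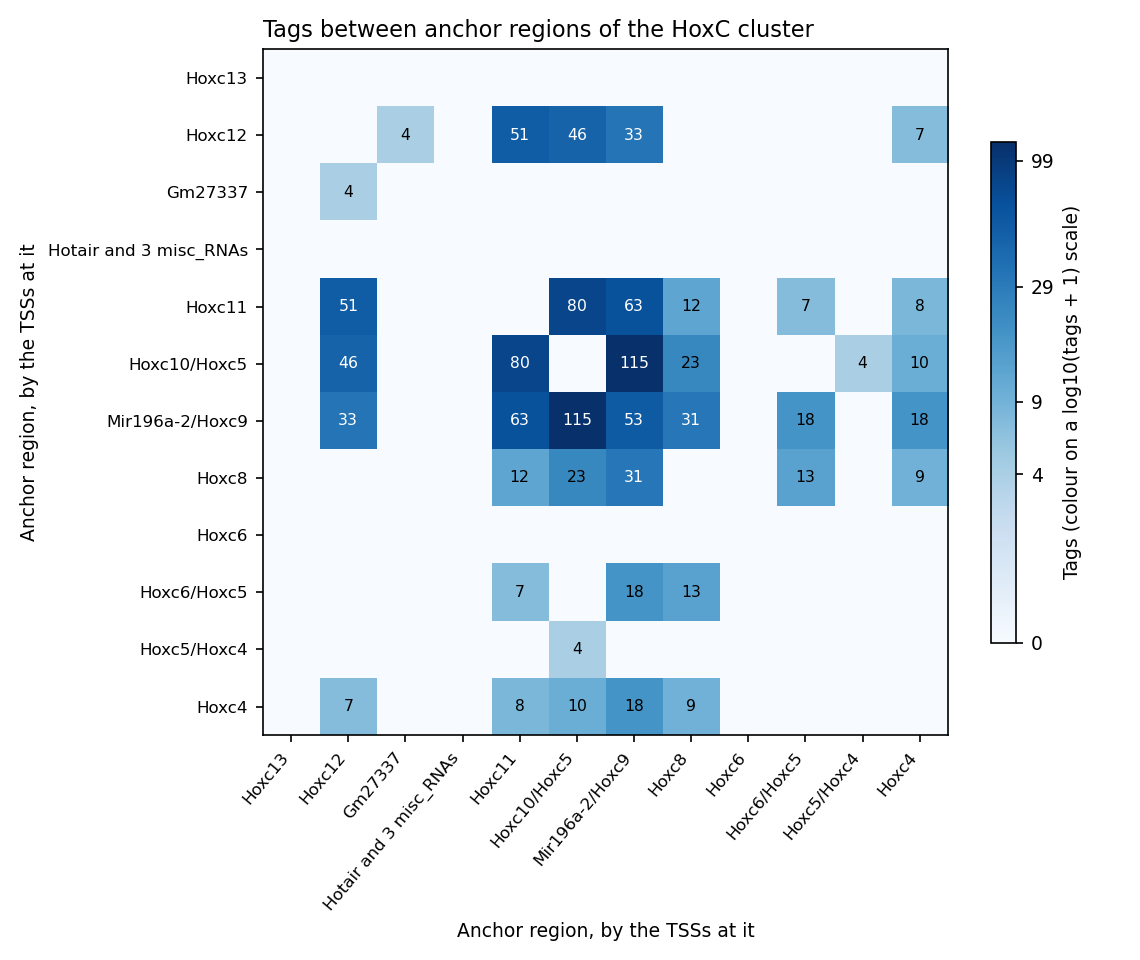
Tags between the 12 anchor regions of the cluster (both axes, named by the TSSs at them, in the gene order), both parts summed, with empty cells where the list holds no loop. The darkest cells, 115, 80 and 63 tags, join Hoxc11, Hoxc10 and the Mir196a-2 and Hoxc9 region, and the rows of Hoxc13, Hotair and the upstream Hoxc6 region are empty.

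Contacts within the cluster and out of it were divided differently over the parts. Loops within HoxC held 1.89% (1.74 to 2.06%) of all tags of the first part and 0.488% (0.381 to 0.624%) of those of the second. Loops that left HoxC held 0.600% (0.517 to 0.697%) and 0.557% (0.443 to 0.701%), intervals that overlap. The parts differ in the same direction over the whole list, where loops with a span under 100 kb held 35.2% of the tags of the first part and 14.7% of the second. The role of this difference in the HoxC values was not tested. Loops within HoxB went the other way, with 0.258% (0.206 to 0.324%) of the tags of the first part and 0.526% (0.416 to 0.667%) of the second.

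Since near loops hold more tags than far ones, the loops within the cluster were also read beside loops of similar span. Under 20 kb the 14 loops of HoxC had a median of 14.5 tags, from 4 to 74, and the 554 such loops of the list a median of 10. By part, 8 loops with a median of 36 tags stood beside a median of 12 in the first, and 6 loops with a median of 7 beside 4 in the second. From 20 to 50 kb the 11 HoxC loops had a median of 12 tags against 9 (23 against 10 for the 7 of the first part). From 50 to 100 kb the 5 HoxC loops had a median of 8 against 7. All 5 were in the first part, where the loops of that span also had a median of 8. The excess over loops of the same span was thus largest under 20 kb in the first part, and in the second part the medians from 20 to 50 kb were both 4.

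The anchors themselves were taken up next. The cluster held 17 distinct anchors, 4 used in both parts, 4 in the first alone and 9 in the second alone. Their median width was 3.18 kb, against 2.59 kb for the 16864 anchors of the list, and they carried a median of 33 tags, against 2. The widest, the Hoxc9 anchor of the first part (7.69 kb, 288 tags) and the Hoxc10 anchor of the first part (7.30 kb, 312 tags), carried the most tags, so that a wide anchor and a high count cannot be told apart here. The narrow Mir196a-2 anchor of 1.51 kb carried 104 tags on 10 loops, more than the Hoxc8 anchor of 3.65 kb with 100.

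Between Hoxc12 and Hoxc11, around Hotair, the anchors were weak. An anchor of 1.71 kb over the 3′ end of Hotair had 10 tags on 6 loops, 4 of these tags to Hoxc12. An anchor of 1.51 kb upstream of Hotair, within 2 kb of its TSS, had 6 tags on 5 loops, which all left the cluster. Hotair thus had a loop score of 6. The misc_RNA genes Gm27443, Gm28011 and Gm27535 share that anchor and its 6 tags, and Gm27337 had the 10 tags of the other. All of these tags were in the second part.

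The sequence of the anchors is given where it bears on the loops. HiChIP cuts DNA at MboI sites (GATC), and the central 2 kb of the HoxC anchors held a median of 6 such sites, from 0 to 8, beside 5 for all anchors. Their median GC content was 54.0%, beside 53.0%, and the observed over expected CpG ratio was 0.468, beside 0.551. The 200 bases at the centre of the Hoxc10 and Hoxc9 anchors of the first part, which share a loop of 74 tags, are shown on the forward strand of GRCm38. The Hoxc10 stretch lies upstream of the Hoxc10 TSS, and the Hoxc9 stretch is intronic.
Hoxc10 anchor, chr15:102966211-102966410: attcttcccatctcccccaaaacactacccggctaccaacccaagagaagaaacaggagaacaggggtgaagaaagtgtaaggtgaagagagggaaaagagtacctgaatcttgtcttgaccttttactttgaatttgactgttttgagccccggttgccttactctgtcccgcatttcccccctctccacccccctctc
Hoxc9 anchor, chr15:102978936-102979135: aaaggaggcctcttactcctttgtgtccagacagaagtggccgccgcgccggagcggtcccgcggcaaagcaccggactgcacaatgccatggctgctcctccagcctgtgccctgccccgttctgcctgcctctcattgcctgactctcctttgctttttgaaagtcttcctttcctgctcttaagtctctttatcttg
Neither stretch holds an MboI site.

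HOX proteins bind DNA together with PBX partners, and the letters TGATNNAT, one form of their joint motif, were searched on both strands. In the central 2 kb, 7 of the 17 HoxC anchors held a match (41.2%), as did 40.8% of all anchors. Over their whole length the HoxC anchors held 13 distinct matches, in 9 anchors. Of those outside exons, 6 are shown, each as 40 bases read in the direction of the match, which is in capitals.
Hotair 3′ anchor, chr15:102943188-102943227: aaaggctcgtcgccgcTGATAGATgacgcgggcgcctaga
Hotair 3′ anchor, chr15:102943926-102943965: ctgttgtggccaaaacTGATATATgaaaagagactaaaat
Hoxc10 anchor, chr15:102964138-102964177: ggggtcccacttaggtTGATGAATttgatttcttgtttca
Hoxc10 anchor, chr15:102964874-102964913: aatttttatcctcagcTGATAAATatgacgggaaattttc
Hoxc9 anchor of the second part, chr15:102975060-102975099, reverse strand: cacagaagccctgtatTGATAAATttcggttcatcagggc
Hoxc9 anchor of the second part, chr15:102975120-102975159: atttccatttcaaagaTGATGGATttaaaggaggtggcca
A match says only that these letters are present. The core letters CCAGGGGGC of the motif of CTCF, a protein found at the ends of many loops, were searched too. They had no match on either strand from the first to the last HoxC anchor. In their central 2 kb, 4.39% of all anchors held one, so that 0 of 17 HoxC anchors is close to that share. The 15 anchors of the 10 strongest partner regions held none either. Only these exact letters were searched, so a lack of matches does not show a lack of CTCF sites.

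Of the 10 genes, the table of RefSeq promoters held Hoxc4. The window, from 250 bases before to 50 after the TSS at chr15:103034145-103034444 on the forward strand of GRCm38.p6, overlaps both Hoxc4 anchors (63 tags in the first part and 3 in the second). It lies wholly within an annotated exon of longer Hoxc4 transcripts, so its letters are not shown. Its GC content was 60.3%. It held neither the TGATNNAT letters, present in 8.85% of 32851 promoters of the same length, nor CCAGGGGGC, present in 1.03%. It did hold 1 MboI site, which was present in 47.97% of these promoters.

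Tags that left the cluster went mostly to the Hoxc4 side. Of the 244, 184 (158.4 to 212.6) on 59 loops led to that side and 60 (45.8 to 77.2) on 46 loops to the Hoxc13 side, which is 24.6% (19.6 to 30.4%). The share on the Hoxc13 side was 22.7% (17.05 to 29.5%) in the first part and 29.2% (19.9 to 40.5%) in the second. It fell to 3.15% (1.23 to 7.82%) among loops of at least 4 tags, since 37 of the 46 loops on that side had a single tag. The loops reached farther there, to 1753.6 kb, with a median span of 448.3 kb against 231.6 kb on the Hoxc4 side, where the longest spanned 428.1 kb. On the Hoxc4 side 173 of the 184 tags went to partners 100 to 300 kb from the end of the cluster, and 8, all in the second part, to nearer ones.

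The partner with the most tags was a region upstream of Smug1, the gene of a uracil-DNA glycosylase of base excision repair, 131.2 kb beyond Hoxc4. It took 91 tags, 68 in the first part and 23 in the second, from 10 of the 12 regions of the cluster. The Mir196a-2 and Hoxc9 region gave 24 of them, Hoxc10 gave 21, Hoxc8 gave 10, the downstream Hoxc6 region gave 9, Hoxc12 and Hoxc11 gave 8 each, and Hoxc4 gave 7. It was the only partner past 32 tags, and these 91 were 90.1% of all tags at that region. GENCODE has no TSS inside it and counts it for Smug1 through a TSS 0.937 kb away, while RefSeq places a Smug1 start inside it.

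Next came a region 266.6 kb beyond Hoxc4 with no TSS of GENCODE within 2 kb, at chr15:103303493-103307270. It lies in the body of the non-coding gene Gm49482, and the nearest coding start was that of Gpr84, which encodes a receptor for fatty acids. It took 32 tags, 30 in the first part and 2 in the second, with 9 from Hoxc10, 8 from the Mir196a-2 and Hoxc9 region, 7 from Hoxc11, 4 from Hoxc12 and 4 from Hoxc4. The region shared by the starts of Cbx5, which encodes heterochromatin protein 1 alpha, and Hnrnpa1, a regulator of splicing, took 28 tags, 25 and 3 by part. Hoxc10 and the Mir196a-2 and Hoxc9 region gave 9 each.

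The centre of the strongest anchor in the partner region without a TSS is shown on the forward strand of GRCm38, since it was the strongest partner away from a promoter.
Partner without a TSS, chr15:103305060-103305259: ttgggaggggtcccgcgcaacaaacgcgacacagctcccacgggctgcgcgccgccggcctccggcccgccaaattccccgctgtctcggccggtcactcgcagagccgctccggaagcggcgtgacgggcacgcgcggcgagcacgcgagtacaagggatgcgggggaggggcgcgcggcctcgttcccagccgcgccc
Its GC content was 75.5% and its CpG ratio 1.16, against 49.5 and 57.0% and 0.256 and 0.580 at the centres of the Hoxc10 and Hoxc9 anchors. The centre of the strongest anchor in the Smug1 region was similar to it, at 70.5% and 1.30. The stretch is not exonic in GENCODE or RefSeq. It held no match to TGATNNAT, but the same anchor held one just before it, at chr15:103304958-103304965.

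The other partners among the 10 strongest had 4 to 9 tags. On the Hoxc4 side they were a second start of Cbx5 (8 tags) and Copz1, which encodes a coat protein subunit of Golgi vesicles (7 tags). On the Hoxc13 side they were Calcoco1 (9 tags), a region without a GENCODE TSS in which RefSeq places the start of the non-coding RNA Cistr (9 tags), Map3k12 and Tarbp2 (8 tags), Atf7 (8 tags) and Rarg (4 tags). Tarbp2 encodes a partner of Dicer in microRNA processing, Atf7 a transcription factor, and Rarg the retinoic acid receptor gamma. Rarg was tied in tags with Atp5g2 and Zfp385a, and was listed by position. These 10 regions took 204 of the 244 leaving tags (83.6%). Of all 35 partner regions, 18 had a single tag and 12 were found in both parts.

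**Figure D4:**
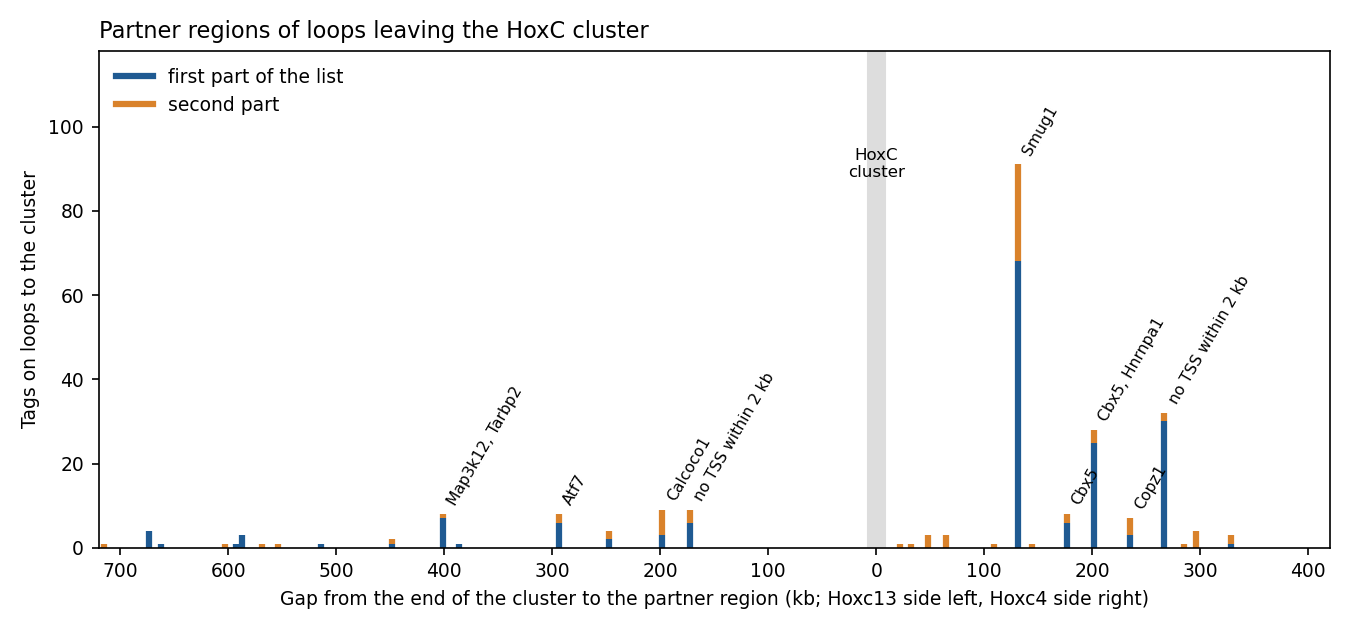
Tags on loops between the cluster and each partner region (y axis) by the gap from the end of the cluster (x axis, kb, the Hoxc13 side left, the Hoxc4 side right), split by the parts of the list. The Smug1 region stands at 91 tags, no other is past 32, and 5 regions with 5 tags in all lie beyond 720 kb and are not drawn.

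Genes outside the cluster with at least 10 tags were ranked by the share of their tags on loops that also reach 1 of the 10 genes. Such genes are partners by this measure itself, since they lie at the other anchor of those loops. The 5 with the largest share are given. The share was 82.2% (Wilson interval 73.6 to 88.4%) of 101 tags for Smug1, 77.8% (63.7 to 87.5%) of 45 for Cbx5 and 75.0% (58.9 to 86.3%) of 36 for Hnrnpa1. It was 66.7% (39.1 to 86.2%) of 12 for Tarbp2 and 58.3% (31.95 to 80.7%) of 12 for Calcoco1. The intervals of all 5 overlap.

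Among the genes themselves, the share of tags that left the cluster lay between 12% and 18% for 7 of the 10. It was 14.02% for Hoxc12, 16.3% for Hoxc11 and for Hoxc10, 14.6% for Hoxc9, 15.2% for Mir196a-2, 17.9% for Hoxc5 and 12% for Hoxc8. Both tags of Hoxc13 left the cluster. Hoxc4 (22.2%, 14.2 to 33.1%) and Hoxc6 (29.6%, 19.1 to 42.8%) had larger shares on fewer tags. The interval of Hoxc6 overlapped those of Hoxc12 (9.53 to 20.2%) and Hoxc11 (12.3 to 21.2%), but not that of Hoxc9 (11.2 to 18.9%).

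The other Hox clusters were read for comparison. HoxB, over 173.9 kb, had 285 tags on 126 loops, 142 of them within the cluster (49.8%, 44.1 to 55.6%). HoxA had 53 tags and HoxD 51, and neither had a loop within the cluster, which allows a share of up to 6.76% and 7.01% by the Wilson interval. Per 10 kb of cluster, loops within HoxC held 52.3 tags and loops within HoxB 8.16. This gap came from the first part, with 542 tags within HoxC and 74 within HoxB, while the second part held 63 within HoxC and 68 within the longer HoxB. The share within the cluster was thus larger in HoxC than in HoxB beyond counting error, also in the first part, at 75.9% (72.6 to 78.9%) against 62.7% (53.7 to 70.9%). In the second part the intervals overlapped, at 46.7% (38.5 to 55.1%) against 40.7% (33.6 to 48.3%).

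The clusters also differed in which genes had the large scores. In HoxB the score was largest at Hoxb2 (108 tags), and was 80 at Hoxb3, 63 at Hoxb4, 54 at Hoxb5, 47 at Hoxb6, 54 at Hoxb7, 34 at Hoxb8 and 26 at Hoxb9. The end genes of HoxB were low, with 2 tags at Hoxb1 and 0 at Hoxb13, as was Hoxc13 in HoxC. In HoxC, with RefSeq TSSs for Hoxc5, the large scores were at Hoxc9 to Hoxc12. Among paralogues Hoxc9 had 321 tags, Hoxb9 26, Hoxd9 5 and Hoxa9 4. Hoxc10 had 312 in the first part alone, Hoxd10 5 and Hoxa10 4 in all, and Hoxc11 had 264, Hoxa11 6 and Hoxd11 5. For the genes numbered 4 and 6 the order of HoxC and HoxB was not set. Hoxc4 had 72 (56.3 to 90.7) and Hoxb4 63 (48.4 to 80.6), while Hoxc6 had 54 and Hoxb6 47. With its RefSeq score of 57, Hoxc5 likewise stood close to Hoxb5 at 54. In group 13 no gene was past the 9 tags of Hoxa13, the largest score of HoxA, and the largest of HoxD was the 17 tags of Hoxd3. The second part held 15.9% (13.6 to 18.5%) of the HoxC tags and 58.6% (52.8 to 64.2%) of the HoxB tags, against 31.1% of the list.

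**Figure D5:**
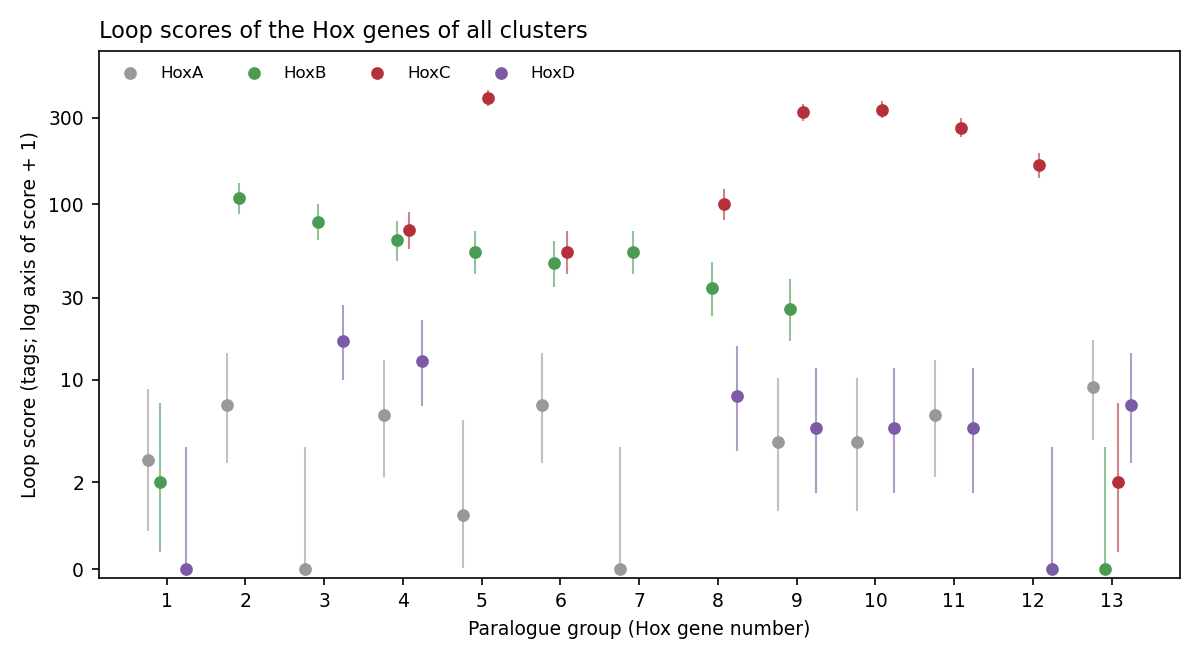
Loop scores of the 39 Hox genes (y axis, log scale of score + 1) by paralogue group (x axis) and cluster, with exact Poisson 95% intervals as lines. HoxC genes numbered 9 to 12 lie at 164 tags or more, their paralogues at 26 or fewer, and in groups 4 and 6 the HoxB and HoxC genes lie side by side. Hoxc5 is drawn at its GENCODE score of 385.

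Of the 30 Hox genes outside HoxC 25 were reached by a loop, and 9 of 9 in HoxC, against 23.9% of all annotated genes. The median score was 6.5 outside HoxC and 164 in HoxC, with Hoxc5 at 385. With the RefSeq score of 57 for Hoxc5, the HoxC median falls to the 100 tags of Hoxc8. Of 9 genes of the MEIS, PBX and PREP cofactors, with which Hox proteins bind DNA, 8 were reached. Meis1 led them with 68 tags on 20 loops, followed by Meis2 and Pbx2 with 14 each, and Meis3 was at 0.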

How the data were processed

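H3K27ac HiChIP of 2 hSS2 tumors was used. The authors digested chromatin with MboI, mapped read pairs to mm10 with HiC-Pro, selected hichipper loops by an FDR under 0.05 and merged both tumors. For the loop calls, 1 legend names Mango instead, with an FDR under 0.01. The submitters' processing notes name MACS2 and mm10. The deposited list gives, per loop, a count of paired-end tags, not normalized, and the FDR, an adjusted p-value. How counts were merged is not given in the sources used here.

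Members and gene lists were chosen with earlier results of these data known. TSSs were those of all GENCODE vM21 transcripts, and loops overlapping 2 kb on either side were summed per gene (the loop score). Named genes were the 10 members, other genes inside the cluster, the 10 strongest partners, the top gene of each Hox cluster, paralogues, and the 5 non-members (at least 10 tags) with the largest share of tags on loops to members. Span is the distance between anchor midpoints. Positions were converted to start at 1. The total was 41574 tags over 24244 loops, 78.0% with a single tag, which limits precision. There being no replicate values, no test was run. Sums have exact Poisson, shares Wilson and neighbouring scores exact binomial 95% intervals. Duplicated anchor pairs (115) were kept. Motifs were searched in GRCm38. Loop assignment and intervals were tested on simulated data. Alternatives were other windows, TSS sets, FDR, tag and span minimums, each part alone, duplicates counted once and other interval edges. A TSS inside the anchor was added after seeing the data. Tools were scipy 1.17.1, pandas 2.3.3 and numpy 2.4.6 under Python 3.11.15, with matplotlib 3.10.9 for plots. ChIP-seq samples were not analysed here. Some sequences are not reported here.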

Additional observations from a re-analysis of the deposited data

How the results depend on the processing

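No paired analysis was possible because the list gives no value per tumor. Of 130 alternative values of the loop scores of the 10 genes, 85 stayed within the counting interval of the reported score and 45 did not, and the cause was not tested beyond what each setting leaves out. Tags within the cluster were 605, and 550 with an FDR under 0.01, 522 under 0.001, 542 in the first part, 63 in the second part and 238 with spans of at least 20 kb. Tags leaving the cluster were 244, and 165, 149, 172 and 72 under the first 4 of these settings, 177 with at least 2 tags and 127 with at least 4. The share within the cluster was 71.3%, and 76.9% with an FDR under 0.01, 77.8% under 0.001, 77.4% with at least 2 tags, 82.7% with at least 4, 75.9% in the first part, 46.7% in the second and 49.4% with spans of at least 20 kb. The share leaving to the Hoxc13 side was 24.6%, and 12.7% with an FDR under 0.01, 10.1% under 0.001, 12.99% with at least 2 tags and 3.15% with at least 4. Loops at the promoters were 121, and 51 with an FDR under 0.01, 41 under 0.001, 65 with at least 2 tags, 46 with at least 4, 68 in the first part and 53 in the second. Counting loops at the same anchors once left these values within their limits, as did taking anchor midpoints or extending the interval by 10 kb for the tags and shares, the results on which these were run. Depth limits Hoxc13, with 2 tags, and any pair of the second part.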
